A study of Mus musculus with 4 samples.

Results

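The Notch receptors Notch1, Notch2, Notch3 and Notch4, the ligands Jag1 and Dll1, the Fringe enzymes Lfng, Mfng and Rfng, and the O-fucosyltransferase Pofut1 were followed in mouse smooth muscle cells of the vessel wall (VSMC) grown in culture. The 10 genes were chosen by name from the pathway, with earlier results of these data known. Each was found with 1 probe set among the 1246 probe sets of the array. All cells were labelled wild type with no disease and were kept in osteogenic medium, a medium that pushes VSMC to become like bone cells. For 2 arrays the cells were treated with 0.4 mM streptozotocin (spelled stroptozotocin in the labels), a glucosamine-containing nitrosourea toxic to pancreatic beta cells, and for 2 control arrays they were left without it. Each group held 1 array of a cell sample named WTA and 1 of a cell sample named WT2, which are called cultures here. Whether these names stand for separate animals is not given, so p-values measure only the spread between these samples, which may be technical. Passage is not given, all 4 titles carry a "3w" whose meaning (an age or a time) is not stated, and the Runx2 knockout cells that the design text names are not analysed here.

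Notch receptors sit in the cell membrane and are switched on by Delta and Jagged ligands on a neighbouring cell. Ligand binding lets proteases cut the receptor, and its inner part moves to the nucleus, where it joins the DNA-binding protein RBPJ and turns on genes of the Hes and Hey families. Pofut1 places fucose on the receptor's EGF-like repeats, and the Fringe enzymes lengthen that fucose with N-acetylglucosamine, which changes how strongly the receptor answers Delta and Jagged ligands. In arteries, Notch3 is best known as a receptor of smooth muscle cells, and Jag1 is known to drive their maturation.

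Median log2 values of the 4 arrays ran from 5.83 to 5.87, and precision is limited by how few arrays there are. The arrays correlated at 0.977 to 0.997 across probe sets, with the lowest value between the streptozotocin array of WTA and the control array of WT2. Of 10 smooth muscle markers 2 were measured by named probe sets, Notch3 itself and Pdgfrb, whose log2 values were 9.44 and 9.38 with streptozotocin and 9.68 and 9.57 in control cells (WTA and WT2). The contractile markers were not analysed here, so the labelled cell type could not be checked against them. Fibroblast markers were bright as well, with Dcn, Lum and Pdgfra all above the background genes described next. Of 10 measured leukocyte and macrophage markers, only 1 had a mean above all of those background genes, Csf1r at 7.61. Whether the cultures held a single cell type was not tested. RNA was measured in bulk, so fewer cells of a type and less RNA per cell cannot be told apart.

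The first question was which of the 10 genes are expressed in these cells. Because RMA values of genes that are off still hold background, each probe set was set beside 36 genes not expected in smooth muscle, such as lymphocyte cytokines, embryonic growth factors and lung and gut secretory genes. Their log2 values ran from 2.48 to 6.73, with a median of 4.50. These genes, too, were chosen with earlier results of these data known, and the brightest probe set of each was used. Notch1, Notch2, Jag1, Rfng and Pofut1, that is 5 of the 10 genes, were brighter than all 36 on each of the 4 arrays. Notch3 was brighter than all 36 on 3 arrays and below 2 of them, Gdf9 and Fgf22, on the control array of WT2. Mfng lay below 2 of these genes by its mean value and Lfng below 5. For Notch4 and Dll1, 20 and 19 of the 36 genes were brighter, so these probe sets did not stand out from background. How bright a probe set is depends also on its probes, so these positions give no order of abundance between the genes.

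**Figure D1:**
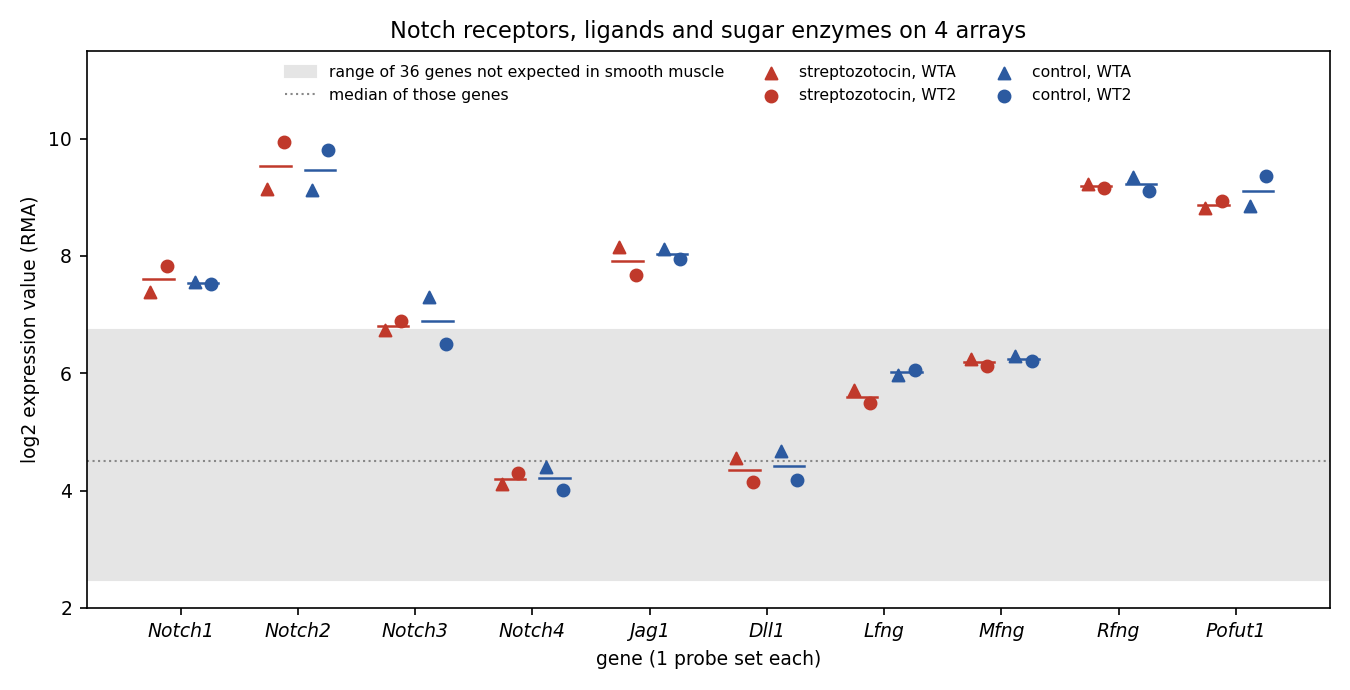
Log2 expression values (vertical axis) of the 10 genes (horizontal axis) on each of the 4 arrays, with streptozotocin arrays in red left of control arrays in blue, triangles for WTA, circles for WT2 and a line at each group's mean of 2 arrays. The grey band spans 2.48 to 6.73, the values of 36 genes not expected in smooth muscle: Notch4 and Dll1 lie near the dotted median of those genes (4.50), Lfng and Mfng in the upper part of the band, and Notch2 separates by culture and not by treatment.

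Across the 10 genes, streptozotocin against control gave 0 genes past the test, higher or lower. The same held for the array as a whole: after adjustment limma called 0 of 1246 probe sets in either direction at the threshold of 0.05 (0% higher and 0% lower). Without adjustment, 25 probe sets (2.01%) had a p under 0.05 in that fit, 1 of them a gene of this family, Lfng. When arrays of the same culture were paired by a replicate block, 0% were called after adjustment, and 80 (6.42%) had an unadjusted p under 0.05, Lfng again the 1 of the 10 genes. The median difference of the 10 genes was -0.07, beside -0.01 over all probe sets. With streptozotocin 4 of the 10 were lower in both cultures (Dll1, Lfng, Mfng and Pofut1), where 28.5% of all probe sets were, and 1 was higher in both (Notch2), against 22.6% of all probe sets. The other 5 differed in opposite directions in the 2 cultures, as did 47.7% of all probe sets.

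Notch2, a receptor gene known from smooth muscle beside Notch3, had log2 values of 9.14 in WTA and 9.94 in WT2 with streptozotocin, against 9.12 in WTA and 9.81 in WT2 in control cells. The treated and control arrays of a culture lay side by side, and the groups overlapped. The difference was 0.08 (95% interval -1.06 to 1.22, limma adjusted p = 1), with 0.02 in WTA and 0.13 in WT2. The width of that interval comes from the fit without the culture, which takes the gap between the cultures as noise. Its probe set has an s in its identifier, which can mean that its probes match several transcripts, as has that of Notch4.

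Notch1, a receptor used in many tissues and in the vessel wall, stood at 7.39 in WTA and 7.82 in WT2 with streptozotocin and at 7.55 in WTA and 7.51 in WT2 in control cells. The control arrays lay together, with the treated arrays on either side of them. Within the cultures the difference was -0.16 in WTA and 0.31 in WT2, and over both it was 0.07 (SE 0.18, limma adjusted p = 1).

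Notch3 had the widest gap of the 10 genes between its differences in the 2 cultures, 0.95 on the log2 scale. Its log2 values were 6.73 in WTA and 6.89 in WT2 with streptozotocin, against 7.30 in WTA and 6.50 in WT2 in control cells. Both treated arrays lay between the control arrays, which were the highest and the lowest. Streptozotocin minus control was -0.57 in WTA, where 1.77% of all probe sets had a lower difference, and 0.39 in WT2, where 91.5% had a lower one. Over both cultures it was -0.09 (95% interval -0.98 to 0.80, limma adjusted p = 1), and the interval leaves room for either direction. Among 518 genes above the table's median, those nearest to Notch3 in pattern were Clec2d, Il27ra and Sult1a1. Their root mean square distances over the 4 arrays were 0.071, 0.115 and 0.12 on the log2 scale, against 0.289 for Notch3 about its own mean. A search of 518 genes over 4 values can give such closeness by itself, and shared regulation was not tested.

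Notch4, a receptor known mainly from endothelial cells, had values of 4.11 in WTA and 4.29 in WT2 with streptozotocin and of 4.40 in WTA and 4.02 in WT2 in control cells. As with Notch3, the control arrays were the highest and the lowest, here at the level of the background genes. The difference was -0.29 in WTA and 0.28 in WT2, and -0.01 over both (SE 0.18, limma adjusted p = 1). In all, 3 of the 4 receptors and Rfng, thus 4 of the 10 genes, were lower with streptozotocin in WTA and higher in WT2, a pattern that 20.9% of all probe sets shared. With 1 array per arm in each culture, the opposite directions were not tested.

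Among the ligands, Jag1, which signals to smooth muscle cells from the endothelium and from neighbouring smooth muscle cells, was above background on every array. It stood at 8.15 in WTA and 7.67 in WT2 with streptozotocin, and at 8.12 in WTA and 7.95 in WT2 in control cells. The lowest array was that of treated WT2 cells, and the groups overlapped. Streptozotocin minus control was 0.03 in WTA and -0.27 in WT2, which gave -0.12 over both (SE 0.20, limma adjusted p = 1). Dll1, a Delta-type ligand, had 4.55 in WTA and 4.14 in WT2 with streptozotocin and 4.68 in WTA and 4.17 in WT2 in control cells. These values lie at background, and the treated array was slightly below the control array in each culture, with a difference of -0.08 over both (SE 0.25, limma adjusted p = 1).

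The Fringe enzyme Lfng had the largest treatment difference of the 10 genes. Its log2 values were 5.71 in WTA and 5.49 in WT2 with streptozotocin, against 5.97 in WTA and 6.06 in WT2 in control cells, that is 5.60 ± 0.16 and 6.02 ± 0.06 (mean ± SD, n = 2 each). Both treated arrays lay below both control arrays, and Lfng was the only one of the 10 genes whose groups did not overlap, where 13.8% of all probe sets were lower and 10.8% higher without overlap. The difference was -0.42 (95% interval -0.76 to -0.07), with -0.26 in WTA and -0.58 in WT2. In WT2 2.49% and in WTA 9.47% of all probe sets had a lower difference. After adjustment over the table this difference was not past the threshold (limma adjusted p = 1). All 4 values lie inside the range of the background genes, where differences of RMA values are compressed. The nearest patterns among the 518 brighter genes were those of Csgalnact2, Copg1 and Jund, at distances of 0.064, 0.068 and 0.12 against 0.226 for Lfng about its own mean. As for Notch3, the search by itself can give such closeness.

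Lfng is itself known as a target of Notch signalling, and RBPJ is known to bind DNA at sites with the core TGGGAA. The 250 bases before the start of Lfng and, for comparison, of Hes5, a classical target gene in the same pathway, are shown because the letters of that core are found in each 2 times. The sequences are RefSeq's, build GRCm38.p6, plus strand, at chr5:140607091-140607340 for Lfng and chr4:154960673-154960922 for Hes5. Capitals mark TGGGAA or its reverse complement TTCCCA.
Lfng: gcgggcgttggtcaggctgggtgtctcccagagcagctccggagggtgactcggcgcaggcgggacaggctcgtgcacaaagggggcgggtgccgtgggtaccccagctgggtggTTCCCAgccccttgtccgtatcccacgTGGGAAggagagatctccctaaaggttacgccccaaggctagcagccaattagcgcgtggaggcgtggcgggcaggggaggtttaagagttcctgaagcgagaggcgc
Hes5: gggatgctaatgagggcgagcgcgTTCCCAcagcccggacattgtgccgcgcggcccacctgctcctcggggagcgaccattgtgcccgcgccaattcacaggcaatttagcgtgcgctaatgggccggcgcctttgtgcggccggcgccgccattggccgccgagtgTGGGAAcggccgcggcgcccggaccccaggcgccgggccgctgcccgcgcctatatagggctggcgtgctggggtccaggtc
In Lfng the matches begin 135 bases (reverse strand) and 108 bases (forward strand) before the start, 27 bases apart, and in Hes5 226 and 82 bases before it. Of the 9 genes of the family with an entry (10 windows), all but Mfng, Lfng was the 1 with a match, while 21.6% of the 32851 windows of the same length in the table hold one. How many of those windows hold 2 matches was not counted. Of 15 other measured pathway genes with an entry, 7 had a match in at least 1 window, among them Rbpj with 2 in the same window. Several of these genes had more than 1 window, so this count of genes cannot be set beside the share of windows. A match describes letters only and says nothing of binding in these cells. Hes5 had log2 values of 6.27 in WTA and 6.09 in WT2 with streptozotocin and 6.18 in WTA and 6.08 in WT2 in control cells, a difference of 0.05 (limma adjusted p = 1). Both genes were dim, inside the range of the background genes.

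Mfng and Rfng, the other Fringe enzymes, differed by less than Lfng. For Mfng the values were 6.25 in WTA and 6.13 in WT2 with streptozotocin, against 6.29 in WTA and 6.21 in WT2 in control cells. For Rfng they were 9.23 in WTA and 9.16 in WT2 with streptozotocin, against 9.34 in WTA and 9.11 in WT2 in control cells. Mfng spanned 0.158 on the log2 scale over the 4 arrays, the narrowest of the 10 genes, and Rfng 0.231. Streptozotocin minus control was -0.06 for Mfng (95% interval -0.34 to 0.21) and -0.03 for Rfng (95% interval -0.38 to 0.31), with limma adjusted p = 1 for each. Pofut1, which adds the fucose that Fringe enzymes extend, stood at 8.82 in WTA and 8.93 in WT2 with streptozotocin and at 8.86 in WTA and 9.36 in WT2 in control cells. Its control array of WT2 was the high one, above the other 3. The difference was -0.04 in WTA and -0.43 in WT2, and -0.24 over both (SE 0.21, limma adjusted p = 1).

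**Figure D2:**
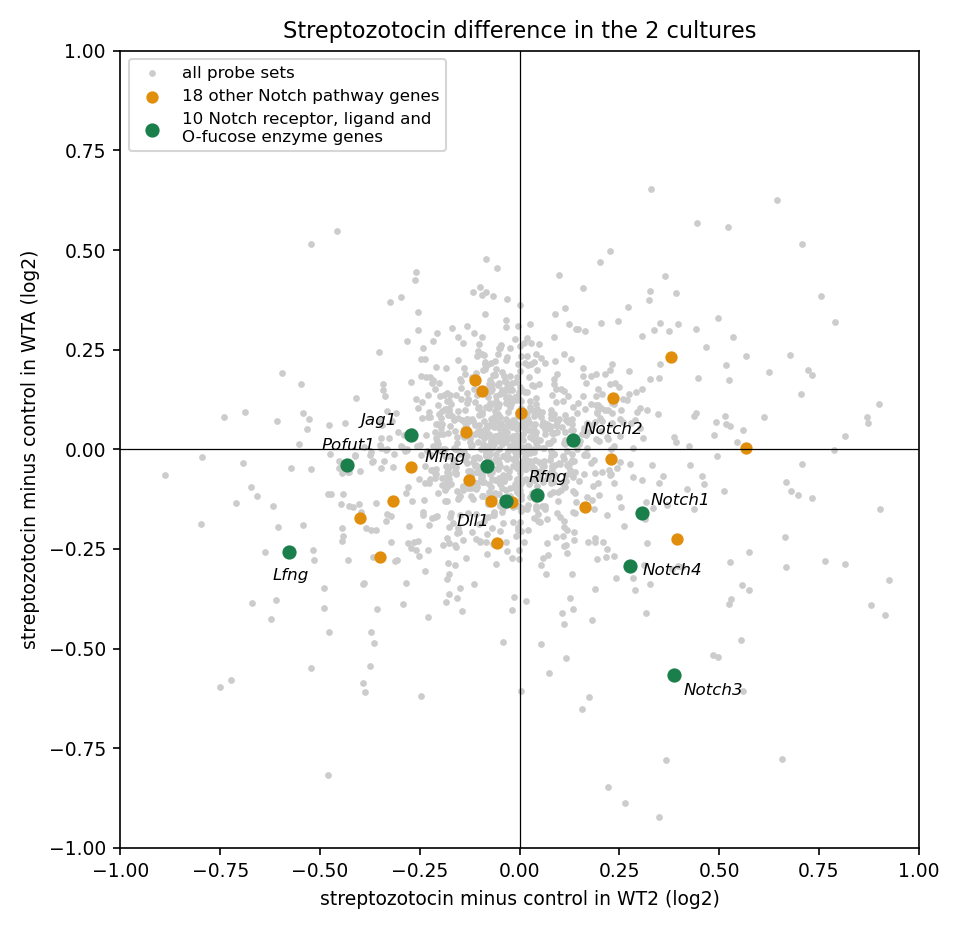
Streptozotocin minus control on the log2 scale in WT2 (horizontal axis) and WTA (vertical axis) for every probe set (grey), the 10 genes (green, named) and 18 other genes of the pathway (orange); 43 probe sets beyond 1 on either axis are not drawn. Notch3 lies lowest among the named genes (-0.57 in WTA, 0.39 in WT2), with Notch1 and Notch4 in the same quadrant, and Lfng lies furthest left (-0.26 in WTA, -0.58 in WT2).

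The second comparison set culture WTA against culture WT2 in a fit that also held the treatment, so its p-values describe these 2 cell samples and no wider spread. The difference that came nearest to the threshold was that of Notch2, which was lower in WTA by both treated arrays and both control arrays. Its values were 9.14 and 9.12 in WTA and 9.94 and 9.81 in WT2 (streptozotocin and control), with no overlap. WTA minus WT2 was -0.74 (SE 0.10, 95% interval -1.02 to -0.47), so the level in WT2 was 1.67 times that in WTA. This missed the threshold (limma adjusted p = 0.0702) and passed it in a robust fit (limma adjusted p = 0.0307). It also missed it after median centring, with the culture alone, with an intensity trend, among probe sets above the table median and after quantile normalization. There limma adjusted p was 0.0575, 0.0689, 0.0887, 0.105 and 0.113, in that order. At an unadjusted p under 0.05 stood 2 of the 10 genes, Notch2 and Dll1, and 16.9% of all probe sets. In all, 0 of the 10 genes passed, while 1.44% of all probe sets were called higher in WTA and 0.803% lower.

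Dll1 was higher in WTA on both arrays, by 0.46 (SE 0.10, limma adjusted p = 0.136), with its values at background. Jag1 was higher in WTA without overlap too, by 0.32 (SE 0.12, limma adjusted p = 0.323), with a larger gap between the treated arrays (0.48) than between the control arrays (0.17). In the same direction, Mfng and Rfng differed by 0.10 and 0.15 (limma adjusted p = 0.706 and 0.575). Pofut1 was lower in WTA, with differences of -0.11 between the treated and -0.50 between the control arrays (fitted difference -0.31, limma adjusted p = 0.404). Thus 6 of the 10 genes had cultures that did not overlap, 4 higher in WTA against 21.3% of all probe sets, and 2 lower against 27.7%.

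For Notch1, Notch3, Notch4 and Lfng the gap between the cultures turned with the treatment. For Notch3 WTA minus WT2 was -0.16 between treated arrays and 0.79 between control arrays. For Notch4 the gaps were -0.19 and 0.38, for Notch1 -0.43 and 0.04, and for Lfng 0.23 and -0.09 (treated and control arrays). Fitted over both, limma adjusted p ran from 0.633 for Notch1 to 0.857 for Lfng. Beside these differences, the mean log2 value of 9 measured endothelial markers was 6.13 in WTA and 5.28 in WT2 with streptozotocin, and 6.05 in WTA and 5.05 in WT2 in control cells. Most of that gap came from Esm1, which was higher in WTA by 4.84 with streptozotocin and by 5.01 in control cells, and which lay at background level in WT2 (4.48 with streptozotocin, 3.99 in control cells). Without Esm1 the mean of the other 8 was 5.73 in WTA and 5.38 in WT2 with streptozotocin, and 5.68 in WTA and 5.18 in WT2 in control cells. Of the 9 markers 5 were higher in WTA in both groups (Esm1, Thbd, Selp, Emcn and, by little, Pecam1), 1 was lower (Icam2), and 3 differed in opposite directions (Sele, Dll4 and Notch4). Pecam1, a defining marker, had a mean of 3.88, inside the background range. The part of these markers in the culture differences of Notch2, Jag1 and Dll1 was not tested.

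**Figure D3:**
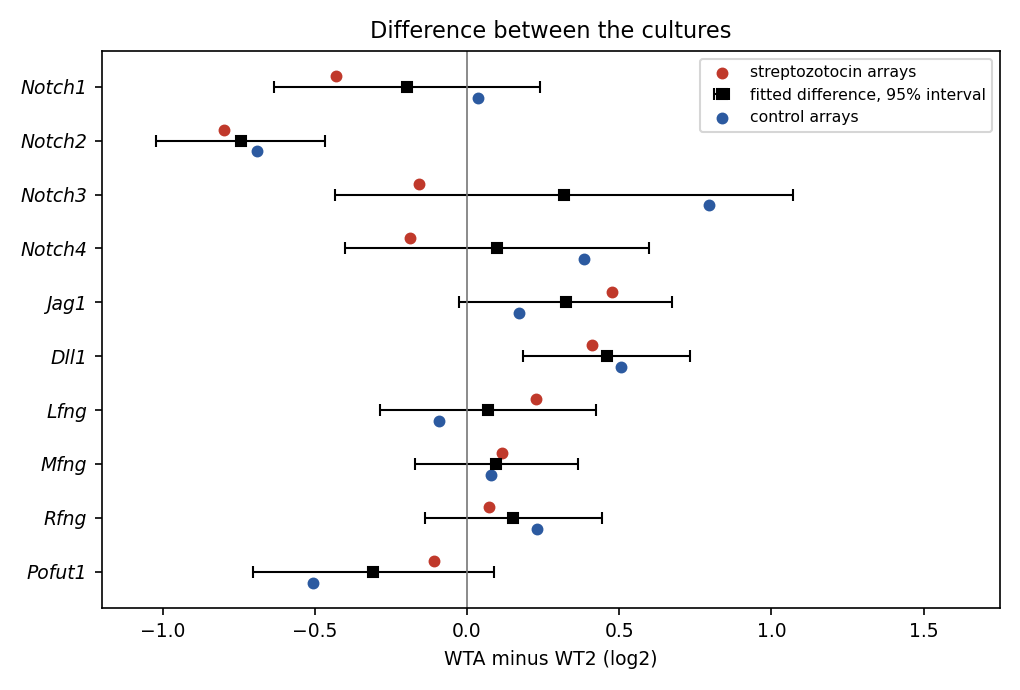
WTA minus WT2 on the log2 scale (horizontal axis) for the 10 genes (rows): squares with bars are the fitted difference with its 95% interval, red points the difference between streptozotocin arrays and blue points that between control arrays. Notch2 lies at -0.74 with both points close by, while the points of Notch3 lie on opposite sides of 0 (-0.16 and 0.79).

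Of 55 other genes listed for the pathway (1 of them under 2 symbols) 18 were measured by named probe sets, and 0 of the 18 passed the test of streptozotocin against control in either direction (limma, 0% of all probe sets called). At an unadjusted p under 0.05 stood 0 of the 18 in that fit and 2, Hes1 and Ncstn, with the replicate block, beside 2.01% and 6.42% of all probe sets. Their median difference was -0.02. With streptozotocin 8 were lower and 4 higher in both cultures, beside 28.5% and 22.6% of all probe sets, and 13 of the 18 had a mean above all background genes. The list also held Pofut2 and Fut8, fucosyltransferases with other targets than Notch (described below). Both count among the 8 and among the 13. Groups did not overlap for 5 of them, 4 lower (against 13.8% of all probe sets) and 1 higher (against 10.8%).

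The 3 other ligands, Dll3, Dll4 and Jag2, lay within the background range, with differences of 0.03, 0.03 and -0.08. Among the proteins that cut the receptor, Ncstn, a subunit of gamma-secretase, had 9.37 in WTA and 9.56 in WT2 with streptozotocin, against 9.64 in WTA and 9.91 in WT2 in control cells. Its treated arrays lay below both control arrays, with a difference of -0.31 (SE 0.15, limma adjusted p = 1, and SE 0.095, adjusted p = 0.716 with the replicate block), close in size in WTA (-0.27) and WT2 (-0.35). Psen2 and Psenen, further subunits, differed by -0.15 and 0.01.

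Rbpj, the DNA-binding partner of the cut receptor, had 9.10 in WTA and 9.88 in WT2 with streptozotocin and 9.32 in WTA and 9.49 in WT2 in control cells. It differed by -0.22 in WTA and 0.39 in WT2, the same directions as Notch1, Notch3 and Notch4, and by 0.08 over both (limma adjusted p = 1). Of the 18 pathway genes 3 had these directions (Rbpj, B4galt1 and Psenen), beside 20.9% of all probe sets. Hes1, a repressor gene that Notch signalling turns on, was higher with streptozotocin in each culture. Its values were 7.43 in WTA and 7.09 in WT2 with streptozotocin, against 7.20 in WTA and 6.71 in WT2 in control cells, so the groups overlapped. The difference of 0.31 did not pass without the replicate block (SE 0.23, limma adjusted p = 1) or with it (SE 0.10, limma adjusted p = 0.726), with 0.23 in WTA and 0.38 in WT2. Hes7 differed by -0.05. Itch, a ubiquitin ligase that acts on Notch, differed by -0.29 (limma adjusted p = 1), with -0.17 in WTA and -0.40 in WT2.

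Genes that make and carry the fucose donor GDP-fucose did not share a direction. Gmds, which starts its synthesis, had 9.36 in WTA and 9.34 in WT2 with streptozotocin, against 9.36 in WTA and 8.77 in WT2 in control cells, where the control array of WT2 stood apart below the others. Gfus, the next enzyme, differed by 0.18, with both treated arrays above both control arrays. The transporter genes Slc35c1 and Slc35c2 differed by -0.22 and -0.10. B4galt1, which can add galactose to the sugar that Fringe enzymes place, differed by 0.10, Pofut2, the O-fucosyltransferase of thrombospondin repeats, by -0.10, and Fut8, which fucosylates the core of N-glycans, by -0.16. For each of these 7 enzymes and transporters limma gave an adjusted p of 1.

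**Figure D4:**
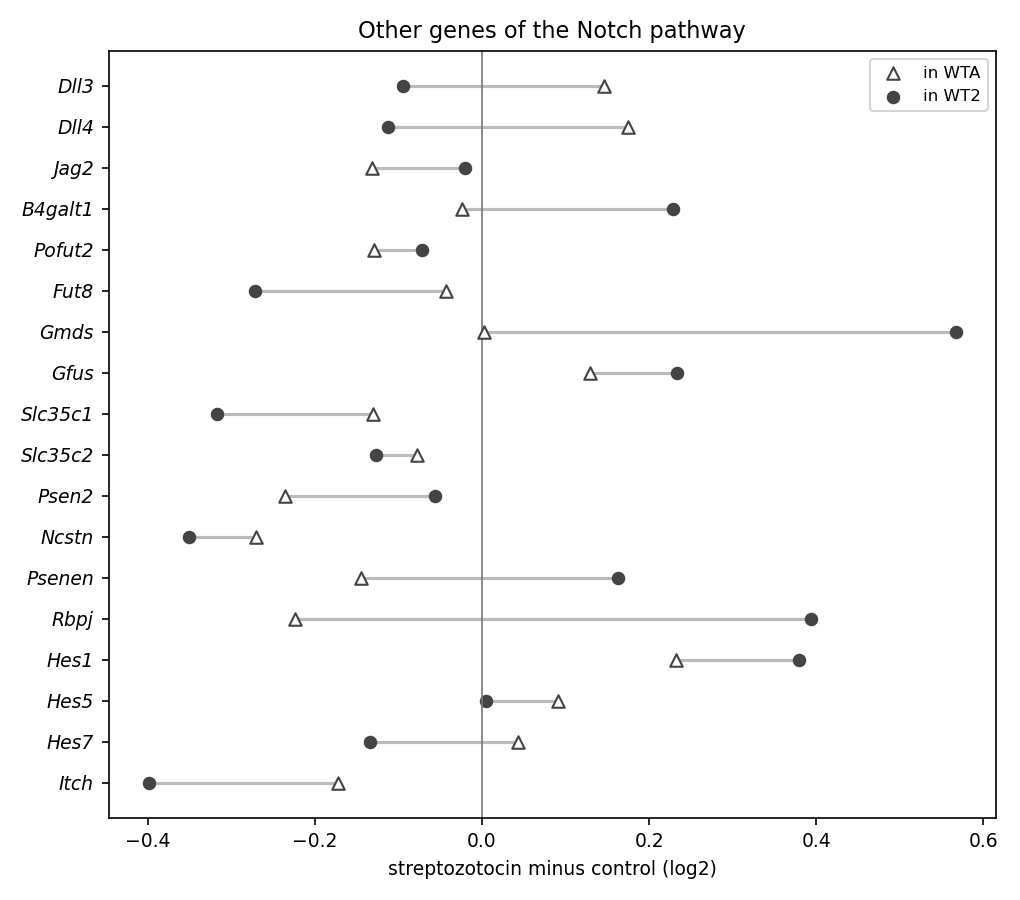
Streptozotocin minus control on the log2 scale (horizontal axis) in WTA (open triangles) and WT2 (filled circles) for 18 other Notch pathway genes (rows), joined by a line. Ncstn lies left of 0 and Hes1 right of 0 in both cultures, Rbpj on opposite sides (-0.22 and 0.39), and Gmds differs in WT2 (0.57) but hardly in WTA (0.0026).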

How the data were processed

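RNA was extracted with Trizol, and biotin-labelled cRNA was prepared as Affymetrix's standard protocol describes, per the labels' protocols. The authors deposited log2 values for 1246 probe sets on 4 arrays. The submitters' processing notes name RMA, without its version or settings. This method makes the distributions of arrays alike, so a shift of most genes would not be seen. Probe sets were named by matching the accession in their identifier, without its version, to RefSeq genes (GRCm38.p6, names only), which named 963 of them (909 genes). Groups, replicate numbers and cultures came from the sample titles.

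Treatment was tested with limma 3.58.1 under R 4.3.3 (lmFit, eBayes, two-sided, 2 arrays per group), adjusted by Benjamini-Hochberg over all probe sets, with a threshold of 0.05. WTA minus WT2 was taken from a fit that held culture beside treatment. Intervals are limma's at 95%. Each replicate number belongs to 1 named cell sample, and the deviations of same-numbered arrays from their group means correlated at 0.600, so the numbers pair the arrays. SE and intervals of treatment differences are from the fit without this pairing, unless the replicate block is named. That fit takes the gap between the cultures as noise, with a median SE of 0.120 over all probe sets, against 0.102 with the block. The fits were tested on simulated data with 200 of 1246 probe sets changed. Without the block the treatment fit called 24.8% of 1.5-fold and 71.2% of 2-fold changes. With the block it called 80.4% and 94.9%. As far as the simulation resembles these data, the main treatment fit would thus miss most 1.5-fold changes. Many changes were planted at once, and each probe set's noise was drawn towards the table's median, so these shares can be too high for these data. The absence of calls with the block therefore does not exclude 1.5-fold changes. Named genes were all 10 members, every measured gene of a pathway list, and the 3 nearest patterns to Notch3 and Lfng. Where a pathway gene, a cell type marker or a background gene had several probe sets, the brightest was taken. The members and lists, the background genes included, were chosen with earlier results of these data known. Alternatives tried were a replicate block, leaving out each array, centring on medians, quantile normalization, leaving out dim probe sets, a trend on intensity, robust eBayes, the mean of a gene's probe sets and the culture alone.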

Additional observations from a re-analysis of the deposited data

Results flagged for a closer look

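Of the 10 genes, 5 differed in opposite directions in the 2 cultures, which is what drew attention to them. Each value is the difference of 2 arrays, so the opposition itself was not tested, and 47.7% of all probe sets showed it. For Notch3 streptozotocin minus control was -0.57 in WTA and 0.39 in WT2, for Notch4 -0.29 and 0.28, and for Notch1 -0.16 and 0.31. Rfng differed by -0.11 in WTA and 0.044 in WT2, and Jag1 by 0.035 in WTA and -0.27 in WT2.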

How the results depend on the processing

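The count of 0 probe sets past the test of streptozotocin against control, over the table, among the 10 genes and among the 18 other pathway genes, was 0 under every alternative run, also with the replicate block, which changed no call (limma, adjusted p = 0.716 for Lfng, whose adjusted p under all alternatives ran from 0.716 to 1). With 1 array left out the treatment difference ranged from -0.14 to 0.29 for Notch1, -0.32 to 0.48 for Notch2, -0.49 to 0.31 for Notch3, -0.20 to 0.18 for Notch4, -0.36 to 0.12 for Jag1, -0.34 to 0.17 for Dll1, -0.15 to 0.081 for Rfng and -0.49 to 0.017 for Pofut1. These values also hold the culture difference, since the cultures are then unbalanced. Lfng (-0.53 to -0.30) and Mfng (-0.12 to -0.0034) kept their direction. For Lfng, whose groups do not overlap, leaving out 1 array could not turn it. Notch4 turned from -0.0085 to 0.0036 after median centring, which shifts the difference of every gene by the same small amount. Rfng turned to 0.0103 after quantile normalization, and the cause was not tested. For the cultures limma called 28 probe sets, against 8 after quantile normalization, 2 among those above the table median, where fewer were tested, 49 in a robust fit and 13 with the culture alone. The robust fit called 1 of the 10 genes, Notch2, which every other fit over all 4 arrays left uncalled. The fit with treatment has no residual degree of freedom over 3 arrays, so it then gave differences with no test. Leaving out each array with the culture alone, an alternative chosen after seeing the data, gave 0 to 18 calls in the table, with 0 on dropping 1 of the WTA arrays, whichever it was, 18 without the treated and 12 without the control array of WT2. With treatment in the fit and 1 array left out, WTA minus WT2 is the gap in the group that keeps both its arrays. It thus only repeated the treated and control gaps given above. These were -0.43 and 0.037 for Notch1, -0.16 and 0.79 for Notch3, -0.19 and 0.38 for Notch4 and 0.23 and -0.091 for Lfng. With the culture alone, Notch4 stood at -0.039 and -0.048 and Lfng at 0.36 and -0.062 without the control array of WT2 and of WTA, and Lfng at -0.22 without the treated array of WT2. Notch2 lay between -0.81 and -0.68 in all of these. Values at the level of the background genes limit what can be said of Notch4, Dll1 and Lfng.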
